A study of Homo sapiens with 6 samples.

Results

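The mitochondrial genome transcripts were the 37 genes whose symbol starts with MT-, of 61806 genes listed, and all 37 lay on the mitochondrial chromosome (MT, GRCh38). They were 13 protein genes, 2 ribosomal RNA genes and 22 transfer RNA genes. The members were defined by name alone and not by their values, though they were chosen with earlier results of these data known. Poly(A) RNA had been sequenced from MG63, an established human osteosarcoma cell line, in 2 groups of 3 libraries labelled as biological replicates. The control group, shNC, carried a control hairpin. The other group, shFTO, carried a stable short hairpin against FTO, the gene of an RNA demethylase that acts on N6-methyladenosine. Whether each group was a clone or a pool of transduced cells, and which hairpin sequences were used, is not given in the sources used here. Replicates are called independent in the design text, which names no cultures, so p-values set the groups against the spread between these libraries only.

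Expression was deposited as FPKM, reads scaled to the length of the gene and to the size of the library, and the whole reads behind each value were recovered from it. The recovered totals were between 93629 and 106245 reads per library, 592760 in all, so that a gene with few reads moves by a large factor with each read. Whether the table holds all reads of the libraries or a part of them is unknown, and depth, read counts and zeros are those of the table. FTO had 0 reads in all 6 libraries, so the knockdown could not be checked on its target. Among markers of the line, 10 of 13 mesenchymal and osteoblast genes had reads, with 82 to 108 summed reads per shNC library and 107 to 116 per shFTO library, while ALPL, BGLAP and SPP1 were at 0. Epithelial markers had reads for 2 of 7 genes (0 to 1 summed reads per shNC library and 0 to 4 per shFTO library, with EPCAM and CDH1 at 0) and blood markers for 0 of 7. The part of these cell types in the results was not tested.

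The human mitochondrial genome is a small circle that is transcribed from both strands as long precursor RNAs. Transfer RNAs sit between most of the other genes, and cutting them out releases the messengers and ribosomal RNAs. Most mitochondrial messengers then receive a short poly(A) tail. The proteins are core subunits of respiratory complexes I, III and IV and of the ATP synthase, complex V, while the nucleus encodes all other subunits. Cells of most tissues hold these RNAs in high amounts, and poly(A) selection keeps those with a tail.

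The tail has a part in the code itself, which the gene ends show. Of the 13 protein genes, 6 ended in an incomplete stop codon, 5 of them in T alone and 1 in TA, and the A bases of the tail complete it. Of the other 7 genes, 3 ended in TAA, 2 in TAG, 1 in AGA and 1 in AGG, codons at which human mitochondrial translation ends. The last 21 bases of selected genes are given below on the strand of the RNA, from the GENCODE 29 transcripts on GRCh38, with the stop codon or the part of it in the gene in capitals.
MT-ND1: cagcattccccctcaaaccTA
MT-ND2: cttttatactaataatcttaT
MT-CO3: ccatctattgatgagggtctT
MT-ND3: aaggattagactgaaccgaaT
MT-ND4: tcattaccgggttttcctctT
MT-CYB: acaaaatactcaaatgggccT
MT-CO1: cccgtatacataaaatctAGA
MT-ND6: gagattgctcgggggaatAGG
The 6 genes with an incomplete stop had 572 reads in all 6 libraries together. MT-ND6 stands apart in base composition: G made up 35.6% of its RNA, against 6.28% to 16.2% in the other 12 messengers, since it alone of the protein genes is read from the light strand.

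Some members share bases with a neighbour, so that a read there cannot be given to 1 gene. In 5 pairs of members the gene bodies overlapped. The longest overlap was 46 bases, at MT:8527-8572, between MT-ATP8 and MT-ATP6, the complex V genes. It covers 22.2% of MT-ATP8. MT-ND4L and MT-ND4 shared 7 bases at MT:10760-10766. The end of the first gene and the start of the second are shown for each pair, with the shared bases in capitals.
MT-ATP8: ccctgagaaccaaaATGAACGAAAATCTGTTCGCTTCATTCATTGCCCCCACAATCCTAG
MT-ATP6: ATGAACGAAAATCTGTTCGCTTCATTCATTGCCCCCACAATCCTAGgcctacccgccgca
MT-ND4L: gtacataacctaaacctactccaATGCTAA
MT-ND4: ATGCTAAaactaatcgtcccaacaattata
How the authors' counting treated such reads is not given in the sources used here, and values of these genes are uncertain to that extent.

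Nuclear copies of mitochondrial DNA can also take reads. Of 402 such copies listed under mitochondrial gene names, 400 had no read in any library. MTND2P28 (chr1:629640-630683, plus strand) had 15 reads and MTATP6P1 (chr1:633696-634376, plus strand) had 10. MTND2P28 matched MT-ND2 at 98.4% of 1042 bases, with 17 differences and a longest identical run of 266 bases. MTATP6P1 matched MT-ATP6 at 98.5% of 681 bases, with 10 differences and a longest identical run of 141 bases. The 40-base window holding the most differences is shown for each pair, with the differing bases in capitals. Over the whole gene the differences are sparser than in these windows.
MT-ND2: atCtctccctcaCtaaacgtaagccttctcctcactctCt
MTND2P28: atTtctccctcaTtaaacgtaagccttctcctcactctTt
MT-ATP6: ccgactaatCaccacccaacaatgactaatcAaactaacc
MTATP6P1: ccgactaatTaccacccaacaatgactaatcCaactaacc
Counted from 1 at the first base of the gene, these are C435T, C445T and C471T between MT-ND2 and its copy, and C129T and A151C between MT-ATP6 and its copy. The copies held 20.5% of the reads of the MT-ND2 pair and 10.3% of those of the MT-ATP6 pair. How many reads given to MT-ND2 and MT-ATP6 would fit a copy equally well was not measured.

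All 13 protein genes and both ribosomal RNA genes had reads, whereas 21 of the 22 transfer RNA genes were at 0 in every library. Together the members had 1549 reads, 0.261% of all reads. The protein genes held 83.7% of these, the ribosomal RNA genes 16.3% and the transfer RNA genes 1 read. MT-CO1 alone held 21.9%, and the 6 members with the most reads held 78.1%. Reads were found in every library for 12 members.

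The cytochrome c oxidase genes, which encode the catalytic core of complex IV, had the highest levels per length. Over the 6 libraries MT-CO2 had a mean of 410.5 FPKM, MT-CO1 373 and MT-CO3 334 FPKM. By mean FPKM they ranked 84, 90 and 96 among the 7057 genes with reads. MT-RNR2, the 16S RNA of the large subunit of the mitochondrial ribosome, followed with 258 FPKM, MT-CYB, encoding cytochrome b of complex III, with 231, and MT-ATP6 with 215. MT-ND4, a complex I gene, had 193 FPKM. The other complex I genes lay lower: MT-ND2 had 93.1, MT-ND5 92.5, MT-ND4L 85, MT-ND3 68.5, MT-ND1 54.3 and MT-ND6 53.5 FPKM. MT-RNR1, the 12S RNA of the small ribosomal subunit, had 27.8 FPKM. For every pair of neighbours in this order the ranges over the 6 libraries overlapped, so neighbouring ranks do not differ beyond their spread. The widest step was from MT-ND4 to MT-ND2, where MT-ND4 was the higher in 5 of 6 libraries.

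**Figure D1:**
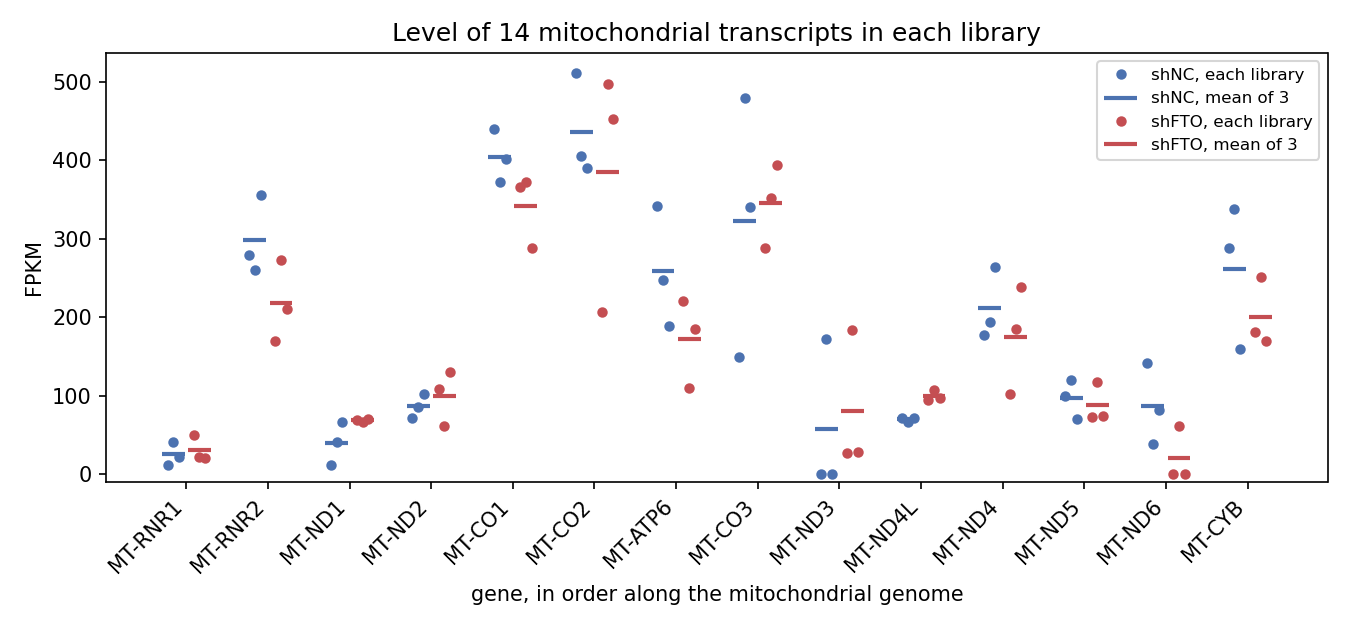
FPKM (vertical axis) of the 14 mitochondrial genes with at least 3 reads, in their order along the genome (horizontal axis); points are single libraries and bars are means of 3, shNC in blue and shFTO in red. The 3 MT-CO genes and MT-RNR2 stand highest, MT-ND3 is high in 1 library of each group, and the groups overlap for all genes drawn except MT-CO1 and MT-ND4L.

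Along the genome the ribosomal RNA genes come first, MT-RNR1 (MT:648-1601, ENSG00000211459) and MT-RNR2 (MT:1671-3229, ENSG00000210082). The complex I genes MT-ND1 (MT:3307-4262, ENSG00000198888) and MT-ND2 (MT:4470-5511, ENSG00000198763) follow. Next are the complex IV and V genes MT-CO1 (MT:5904-7445, ENSG00000198804), MT-CO2 (MT:7586-8269, ENSG00000198712), MT-ATP8 (MT:8366-8572, ENSG00000228253), MT-ATP6 (MT:8527-9207, ENSG00000198899) and MT-CO3 (MT:9207-9990, ENSG00000198938). The other complex I genes are MT-ND3 (MT:10059-10404, ENSG00000198840), MT-ND4L (MT:10470-10766, ENSG00000212907), MT-ND4 (MT:10760-12137, ENSG00000198886), MT-ND5 (MT:12337-14148, ENSG00000198786) and MT-ND6 (MT:14149-14673, ENSG00000198695), before MT-CYB (MT:14747-15887, ENSG00000198727). Each of these genes is a single exon, the deposited length being equal to the span. Level did not follow order along the heavy strand. MT-RNR1, the first of these genes, stood lowest of the 14 with at least 3 reads. Its neighbour MT-RNR2, cut from the same precursor, had 258 FPKM. Both genes lie between transfer RNA genes, and how far poly(A) selection set their FPKM was not tested. From there FPKM ran low at MT-ND1 and MT-ND2, high at MT-CO1, MT-CO2, MT-ATP6 and MT-CO3, and low at MT-ND3. It was 193 at MT-ND4, low again at MT-ND5 (92.5) and the light-strand gene MT-ND6 (53.5), and 231 at MT-CYB. MT-ATP8, with 17.1 FPKM from 2 reads, and MT-ND4L had lower FPKM than MT-ATP6 and MT-ND4, which they overlap. Whether the RNA level differs within these pairs was not tested. All are levels within the same 6 libraries, and the ambiguous bases named above bear on MT-ATP8, MT-ATP6, MT-ND4L and MT-ND4. MT-ATP6 and MT-CO3 also share 1 base.

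Transfer RNAs, the adaptors of mitochondrial translation, were at or near 0. The only read fell on MT-TP, the proline transfer RNA (MT:15956-16023, light strand, 68 bases), in shNC replicate 3. Its sequence shows how short a target each of these genes offers.
MT-TP: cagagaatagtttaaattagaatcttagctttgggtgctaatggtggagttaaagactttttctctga
The 22 genes were 59 to 75 bases long. A count of 0 leaves room for up to 3 reads over a group, and such a gene would then stand at between 132 and 176 FPKM. Over all 6 libraries together, the same 3 reads put the limit of the 21 genes at 0 at between 67.5 and 85.8 FPKM. These limits cover counting error only. They hold for reads in poly(A) libraries and set no limit on the amount of transfer RNA in the cells.

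The study compared shFTO with shNC to find targets of FTO. No member passed the threshold in limma, a linear model with moderated variance, on log2(FPKM + 1) with a Benjamini-Hochberg adjusted p under 0.05 over all 4932 genes tested. The background was 0.0406% of genes called, 2 of 4932, so that no call among 16 members was read as a result. All 16 members with reads entered the test, MT-ATP8 and MT-TP only through their reads in shNC. Of these, 2 had an unadjusted p under 0.05, against 3.85% of all genes tested. The smallest adjusted p of a member was 0.772 in limma. Estimates were higher in shFTO for 6 members and lower for 10, with a median log2 fold change of -0.26, beside 0.00 over all genes tested. This median includes MT-ATP8 and MT-TP, which had no reads in shFTO.

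All summed values of the members in shFTO were below all those in shNC. Per 100000 reads of the library, shNC replicates 1, 2 and 3 had 278, 294 and 278. The same replicates of shFTO had 209, 272 and 244. The nearest libraries were shNC replicate 3, at 277.7, and shFTO replicate 2, at 272.1. Means were 283 ± 9.46 in shNC and 242 ± 31.6 in shFTO (SD, n = 3 each). The exact permutation test, two-sided here and below, gave p = 0.1, and 3 libraries against 3 cannot go lower. With median-of-ratios size factors in place of library totals the exact p was 0.3, and the groups overlapped. Leaving out MT-CO1 gave an exact p of 0.2, and these groups overlapped as well. Among all genes with at least 30 reads, 4.8% had groups that did not overlap with shFTO lower. Pooled over libraries, shFTO had 0.848 times the shNC level (exact 95% limits 0.766 and 0.938). That interval holds the error of counting alone. Over 705 genes, any 2 libraries differed by more than that (chi-square of 1.72 to 2.24 per degree of freedom), so the limits are likely too narrow. Leaving out 1 library at a time, the ratio of means lay between 0.799, without shFTO replicate 2, and 0.911, without shFTO replicate 1. In these bulk samples, fewer cells with many mitochondria and less mitochondrial RNA per cell cannot be told apart.

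**Figure D2:**
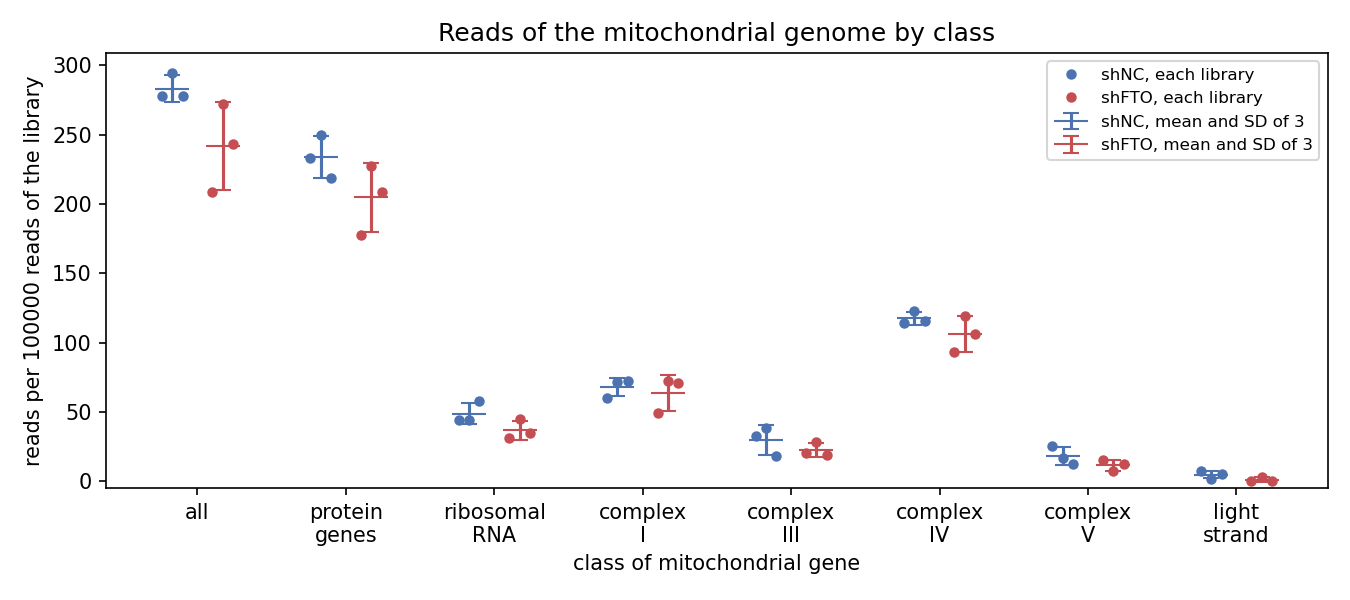
Reads per 100000 reads of the library (vertical axis) for all mitochondrial genes and for their classes (horizontal axis); points are libraries, and bars are the mean and SD of 3, shNC in blue and shFTO in red. Only the sum over all genes, 283 in shNC and 242 in shFTO, shows groups that do not overlap among the classes drawn.

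By class of RNA, 9 sums were compared and their p-values adjusted together, and none had an adjusted p below 0.45. Protein genes had 233, 249.5 and 219 reads per 100000 in shNC replicates 1, 2 and 3, and 178, 227 and 209 in shFTO replicates 1, 2 and 3. Here shFTO replicate 2 lay within the shNC range. Their means were 234 ± 15.3 and 205 ± 25 (exact p = 0.2). Ribosomal RNA had 48.9 ± 7.59 in shNC and 36.8 ± 7.02 in shFTO (exact p = 0.3), nearly all of it from MT-RNR2. The heavy strand, which gives 28 members and 98.9% of the reads, had 278 ± 12.1 and 240.5 ± 30.1 and groups that did not overlap (exact p = 0.1, adjusted p = 0.45). The 9 light-strand members had 14 reads in shNC and 3 in shFTO (exact p = 0.2). The libraries were strand-specific, per the design text, but how the counting used strand is not given, so light-strand reads and antisense reads of the heavy strand cannot be told apart.

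Complex IV had 51% of the protein reads, from its 3 mitochondrial genes. Its sums were 114, 123 and 115 per 100000 in shNC and 93.2, 119 and 106 in shFTO, and the groups overlapped (exact p = 0.3, adjusted p = 0.45). MT-CO1, which carries the oxygen-reducing centre, stood at 439.9, 372 and 402 FPKM in shNC replicates 1, 2 and 3. In shFTO replicates 1, 2 and 3 it stood at 366, 372 and 288 FPKM. All shFTO values were below all shNC values, but shNC replicate 2 (372.44 FPKM) and shFTO replicate 2 (372.22 FPKM) differed by less than the worth of 1 read. MT-CO1 was the only one of the 10 members with at least 30 reads whose groups did not overlap. That is 1 of 10, where 9.89% of all genes with as many reads do so in either direction. Its log2 fold change was -0.25 (SE 0.13, limma adjusted p = 0.772).

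MT-CO2, the subunit that takes electrons from cytochrome c, had 511, 405 and 390.4 FPKM in shNC and 206, 497 and 452 in shFTO. The library shFTO replicate 1 was the lowest and the groups overlapped widely. MT-CO3, the third core subunit, had 149, 479.9 and 341 FPKM in shNC and 288, 352 and 395 in shFTO. Here shNC held both the lowest and the highest library. The log2 fold changes were -0.27 (SE 0.40) for MT-CO2 and 0.24 (SE 0.50) for MT-CO3, with limma adjusted p of 0.865 and 0.91. Without shFTO replicate 1 the estimate for MT-CO2 was 0.13, and without shNC replicate 1 that for MT-CO3 was -0.24, so that 1 library sets the sign of each.

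Complex I draws 7 subunits from the mitochondrial genome, and they had 390 reads. Their summed reads were 68.1 ± 6.7 per 100000 in shNC and 63.9 ± 13 in shFTO (exact p = 0.6). MT-ND4, a subunit of the proton-pumping arm, had 177, 194 and 264 FPKM in shNC and 102, 185 and 238 in shFTO. MT-ND5, the largest mitochondrial protein gene, had 99.4, 120.2 and 70.7 FPKM in shNC and 72.7, 117 and 74.7 in shFTO. Replicate 2 was the highest of each group for MT-ND5, and the values overlapped. MT-ND2 had 71.2, 85.5 and 102.5 FPKM in shNC and 108, 61.2 and 129.9 in shFTO. For these 3 genes the log2 fold changes were -0.33 (SE 0.31), -0.13 (SE 0.25) and 0.15 (SE 0.26) in limma, with adjusted p of 0.772, 0.884 and 0.87. Each took the other sign without 1 library: MT-ND4 stood at 0.01 without shFTO replicate 1, MT-ND5 at 0.04 without shNC replicate 2 and MT-ND2 at -0.07 without shFTO replicate 3.

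MT-ND1, which lies near the quinone site of complex I, had 11.1, 41.4 and 67 FPKM in shNC and 68.9, 66.7 and 70.8 in shFTO. The shFTO libraries lay close together, while shNC spread from 1 read to 6. The groups overlapped by a narrow margin, and the log2 fold change was 1.09 (SE 0.62, limma adjusted p = 0.772). That of MT-ND1 was 0.38 without shNC replicate 1 and 1.62 without shNC replicate 3. MT-ND4L, the shortest mitochondrial gene of complex I, had 2 reads in each shNC library and 3 in each shFTO library. Its values, 71.4, 66.7 and 71.9 FPKM against 95.1, 107 and 97.6 FPKM, did not overlap, yet the difference is 1 read a library. With equal reads in each library of a group, the SDs of 2.88 and 6.48 FPKM come from the library totals and hold no error of counting. The limma estimate was 0.51 (adjusted p = 0.772), and its SE of 0.23 also draws on the spread of other genes. Groups that do not overlap were found for 2 of the 16 tested members, where 6.59% of all genes tested had them.

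Both other complex I genes were detected in part of the libraries only. MT-ND3 had 0, 6 and 0 reads in shNC replicates 1, 2 and 3, and 1, 6 and 1 reads in shFTO. The second library of each group held nearly all of its reads. MT-ND6 had 7, 2 and 4 reads in shNC and 0, 3 and 0 in shFTO, or 141, 37.7 and 81.4 FPKM against 0, 60.7 and 0 FPKM. The groups overlapped through the second libraries. The limma log2 fold changes were 3.26 (SE 2.56) for MT-ND3 and -4.28 (SE 2.00) for MT-ND6, with adjusted p of 0.772 for both, and depend on the pseudocount where libraries are at 0. Without shNC replicate 2, MT-ND3 was called in limma (log2 fold change 5.74, adjusted p = 3.71e-05), from 0 and 0 reads against 1, 6 and 1. Without shFTO replicate 2, MT-ND6 was called lower in shFTO (log2 fold change -6.26, adjusted p = 1.67e-05), from 13 reads against 0. Both calls rest on groups of 2 libraries at 0, which have no spread of their own.

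MT-CYB is the only mitochondrial gene of complex III. It had 288, 338 and 159 FPKM in shNC and 181, 251.5 and 169 in shFTO. The lowest value was in shNC replicate 3 and the groups overlapped, and shFTO differed from shNC by -0.33 on the log2 scale (SE 0.29, limma adjusted p = 0.772). For complex V, MT-ATP6, which forms the proton path of the ATP synthase, had 342, 247 and 188 FPKM in shNC and 221, 109 and 185 in shFTO. Estimates for MT-ATP6 stayed below 0 without each library in turn, between -0.82 and -0.32 on the log2 scale, beside -0.61 (SE 0.31, adjusted p = 0.772 in limma) with all 6. MT-ATP8 had 2 reads, both in shNC replicate 1. Its limma estimate of -2.23 (SE 1.62, adjusted p = 0.772) depends on the pseudocount and bounds no fold. With the reads of MTATP6P1 added, the ratio of complex V reads in shFTO to shNC was 0.72 in place of 0.637.

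The ribosomal RNAs differed in FPKM by a wide margin. These were libraries of poly(A) RNA, and how far the FPKM follow the amounts of both RNAs in the cells was not tested. MT-RNR2 had 279, 260.4 and 356 FPKM in shNC and 169, 273 and 211 in shFTO. Only shFTO replicate 2 reached into the shNC range. It had the smallest unadjusted p of all members, 0.00986 in limma, and shFTO differed from shNC by -0.47 on the log2 scale (SE 0.17, adjusted p = 0.772). MT-RNR1 had 1, 4 and 2 reads in shNC and 5, 2 and 2 in shFTO, which allows no statement on its direction.

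A quasi-Poisson fit to the recovered reads, added after the values were seen, gave intervals for the 10 members with at least 30 reads. No gene of 1021 was called (0 genes), and 54 had an unadjusted p under 0.05. For MT-RNR2 the ratio of shFTO to shNC was 0.724 with a 95% interval from 0.51 to 1.03 (adjusted p = 0.929). MT-CO1 had a ratio of 0.846 with an interval from 0.634 to 1.13, and MT-ATP6 one of 0.671 with an interval from 0.376 to 1.2. The interval of MT-CO3 ran from 0.683 to 1.63 around 1.05. For MT-RNR2, MT-CO1, MT-CO2, MT-CO3, MT-ND4 and MT-ND5 the intervals leave out a halving and a doubling, while that of MT-ND1, 0.64 to 4.67, allows more than a doubling.

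**Figure D3:**
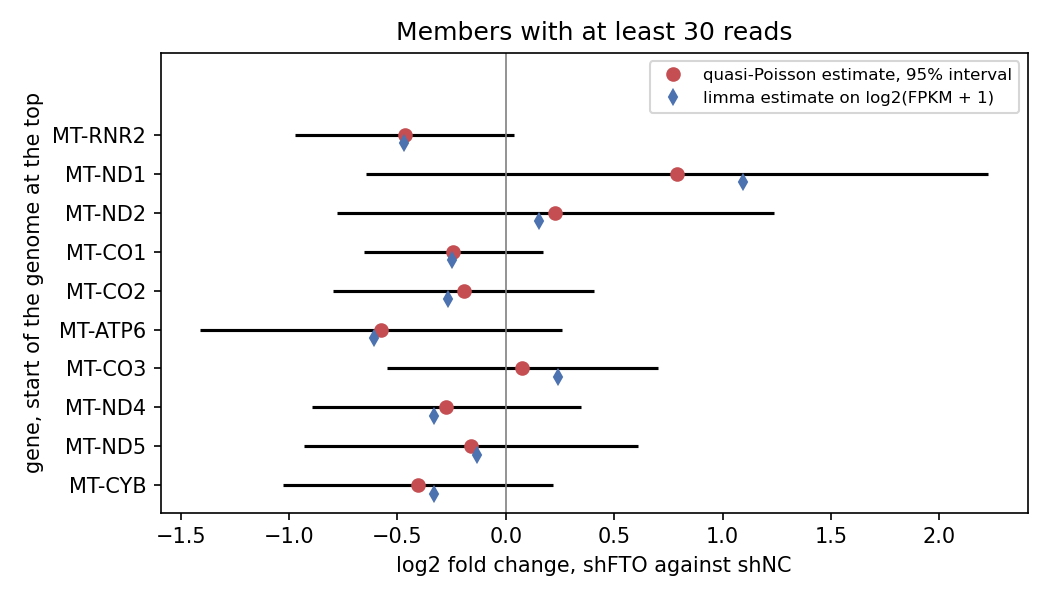
Log2 fold change of shFTO against shNC (horizontal axis) for the 10 members with at least 30 reads (vertical axis, in genome order); red points and lines are the quasi-Poisson estimates and 95% intervals, blue diamonds the limma estimates. All 10 intervals include 0, 7 estimates lie below it and 3 above.

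The make-up of the members was also set out as shares of a library's mitochondrial reads. Complex IV made up 41.2%, 41.8% and 41.5% of mitochondrial reads in shNC replicates 1, 2 and 3, and 44.6%, 43.8% and 43.7% in shFTO. These groups did not overlap (exact p = 0.1; 0.6 once adjusted over 9 classes), and this share was looked at after the values were seen. Its direction is the reverse of the complex IV reads per 100000 reads of the library. In shFTO the mitochondrial total was lower by more than the complex IV reads were. Complex I made up 24 ± 2.21% and 26.3 ± 2.78% (exact p = 0.4), and ribosomal RNA 17.3 ± 3.02% and 15.2 ± 1.1% (exact p = 0.4). Among the 10 members with at least 30 reads, the share of MT-ND1 alone had groups that did not overlap. It was 0.382%, 1.35% and 2.31% in shNC and 3.15%, 2.34% and 2.78% in shFTO (exact p = 0.1; 1 once adjusted over 10 genes). The libraries shNC replicate 3 and shFTO replicate 2 had 6 reads of MT-ND1 each, so only their mitochondrial totals part these shares. In FPKM the groups of MT-ND1 overlapped. Of all genes with at least 30 reads, 9.89% had FPKM that did not overlap in either direction. The separation of the MT-ND1 share was not read as a result. MT-CO1 made up 22.1 ± 2.46% and 22.1 ± 4.48%.

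The nuclear genes of the same complexes gave far fewer reads. The 13 mitochondrial subunit genes had 1296 reads, whereas 77 nuclear subunit genes of complexes I, III, IV and V had 293, from 45 genes with any read. The mitochondrial reads were 6.67, 4.75 and 4.56 times the nuclear reads in shNC replicates 1, 2 and 3, and 2.82, 5.1 and 4.08 times in shFTO. The groups overlapped through shFTO replicate 2. On the log2 scale the ratio was 2.39 ± 0.30 in shNC and 1.96 ± 0.43 in shFTO, a difference of -0.43 (exact p = 0.3).

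**Figure D4:**
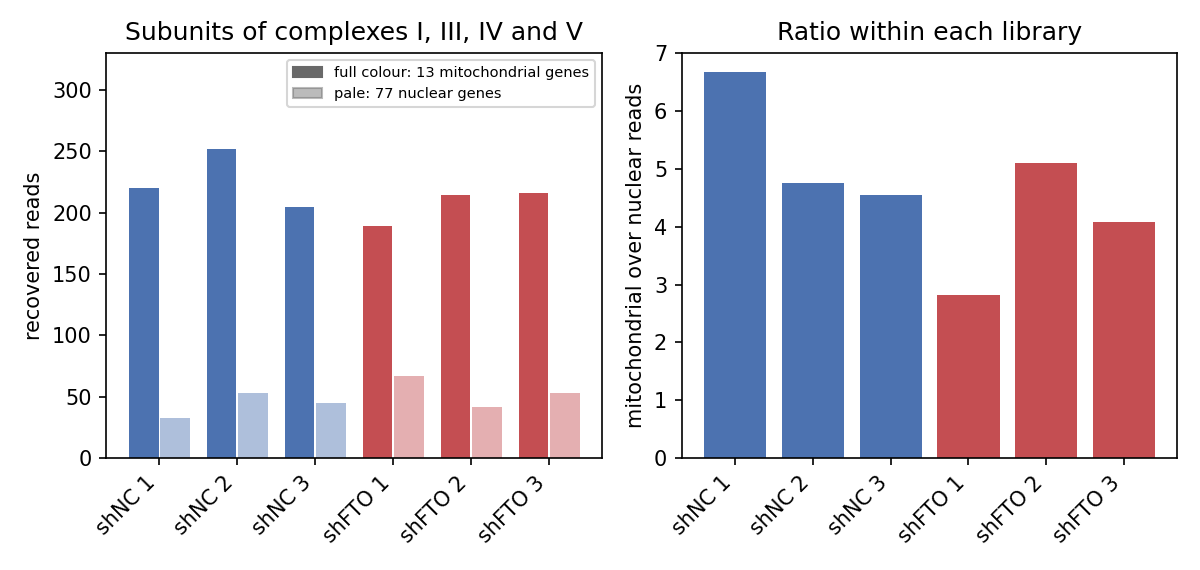
Left, recovered reads (vertical axis) of 13 mitochondrial (full colour) and 77 nuclear (pale) subunit genes in each library (horizontal axis); right, mitochondrial over nuclear reads in the same libraries, shNC in blue and shFTO in red. The ratio is highest in shNC replicate 1, at 6.67, and lowest in shFTO replicate 1, at 2.82.

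Among the nuclear lists of the pathway, 0 members passed the test in either direction. Complex V had the most reads of the nuclear complexes, 70 in shNC and 84 in shFTO over 16 genes, of which 9 were tested. ATP5F1B, the catalytic beta subunit, had 6, 3 and 7 reads in shNC and 9, 8 and 10 in shFTO, and the groups did not overlap in reads. Among all genes with at least 30 reads, 9.89% had FPKM that did not overlap in either direction. The separation of this gene, named for its reads and its small p, was therefore not read as a result. The FPKM of ATP5F1B were 25 ± 10.5 and 39.7 ± 3.04 (log2 fold change 0.74, SE 0.38, limma adjusted p = 0.772). ATP5MC3 and ATP5MC1, which encode the membrane ring, had 21 and 23 reads and 16 and 11 reads in shNC and shFTO. In complex IV, COX5A had 9 and 13 reads and 0 of 7 tested genes were called. In complex I, NDUFAB1, an acyl carrier subunit, had 6 and 8 reads, NDUFS1 and NDUFS6 had 4 and 4 each, and 0 of 17 tested were called. UQCRC2 of complex III had 5 and 6 reads, with 0 of 6 tested called, and SDHC, the only complex II gene with reads, had 1 and 5. Complex II has no mitochondrial gene.

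Genes that copy, read and process the mitochondrial genome were close to the detection limit. For transcription and copying of mitochondrial DNA, 4 of 16 genes had reads, 4 in shNC and 4 in shFTO: MTERF3 had 3 reads, POLG and TWNK 2 each and TFB2M 1. POLRMT, the mitochondrial RNA polymerase gene, and TFAM, the packaging and transcription factor gene, were at 0. For RNA processing and turnover, 18 of 33 listed genes had reads, 35 in shNC and 30 in shFTO, and 0 of 9 tested were called. LRPPRC, which stabilises mitochondrial messengers, had 8 and 10 reads, and REXO2, an oligoribonuclease, had 7 and 9, all 7 in shNC replicate 2. For the mitochondrial ribosome, 41 of 81 listed genes had reads, 53 in shNC and 62 in shFTO, and 0 of 34 tested were called. MRPS6, of its small subunit, had 5 and 0 reads (limma adjusted p = 0.772).

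Regulators of mitochondrial gene expression in the nucleus had 186 reads in shNC and 231 in shFTO. Their sums were 69.95, 56.4 and 67.3 per 100000 in shNC and 74.4, 70.15 and 83.1 in shFTO. These did not overlap, by a narrow margin between shNC replicate 1 and shFTO replicate 2 (exact p = 0.1; 0.9 once adjusted over 9 lists). YY1, a general transcription factor, held 143 and 183 of these reads, at 58.1 ± 8.35 FPKM in shNC and 70.2 ± 6.91 in shFTO (limma adjusted p = 0.772). Without YY1 the ratio of shFTO to shNC was 1.06 in place of 1.18. GABPB1, a subunit of the factor NRF-2, had 2 and 14 reads, 9 of them in shFTO replicate 2. ESRRA, an orphan nuclear receptor, had 28 and 28 reads. PPARGC1A, the coactivator best known for raising mitochondrial content, was at 0 in all 6 libraries.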

How the data were processed

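Poly(A) RNA of 3 shNC and 3 shFTO libraries was measured. The submitters' processing notes name GRCh38, DESeq2 1.50.2, StringTie 1.3.3b, HTSeq 0.6.1, HISAT2 2.2.1 and FastQC 0.10.1, without their roles or a strand setting. The authors deposited FPKM per gene, rounded to 2 decimals. Columns were matched to libraries by group and number.

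FPKM times length gave whole reads (within 0.05) for 100% of values above 0 at library totals found between 20000 and 200000. Any 2 libraries differed beyond sampling noise (chi-square over 705 genes, 1.72 to 2.24 per degree of freedom), so all counted as separate. Values entered limma 3.58.1 (R 4.3.3; trend, robust) as log2(FPKM + 1), with the group as the only term; the 4932 genes tested averaged 1 FPKM or more in either group. On this scale the change of low genes is understated, except that libraries at 0 can enlarge it. Sums were compared by exact two-sided permutation, in Python 3.11.15. The limma and quasi-Poisson fits were tried on simulated reads with counting error only. Such reads do not hold the added spread between these libraries. Sequences came from the GENCODE 29 transcripts. Members with at least 30 reads are given by library; nuclear genes were named by most reads or smallest p in each list, and not all of them are described. The members and lists were chosen with earlier results of these data known.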

Additional observations from a re-analysis of the deposited data

How the results depend on the processing

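The count of called genes over the whole table was 2 as reported, 7 with a pseudocount of 0.1, 9 with no filter, 0 with at least 10 reads per library (705 genes, 31 at an unadjusted p under 0.05 in limma), 5 in limma-voom, 4 with upper-quartile scaling and 0 in the quasi-Poisson fit, and lay between 2 and 9 with 1 library left out. No mitochondrial gene was called under these settings with all 6 libraries, at a smallest adjusted p between 0.163 with no filter and 0.929 in the quasi-Poisson fit, and 0 or 1 was with 1 library left out. With the replicate number as a block 17 genes were called, 1 of them mitochondrial, MT-ND3 (log2 fold change 3.26, limma adjusted p = 0.000677). No pairing by number was seen. Deviations of same-numbered libraries correlated at -0.00, 0.04 and -0.01 over genes with at least 10 reads per library. Only replicate 2 correlated best with its own number. With 3 libraries a group and the counting error at this depth, the check cannot exclude pairing. For the sums, the sign-flip test of 3 pairs cannot go below 0.25. Upper-quartile scaling moved the median log2 change of all genes from 0.00 to 0.10 and that of the members from -0.26 to -0.14.

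Of 383 alternative values of results with a direction, 25 changed direction. Ratios of shFTO to shNC that did so were 1.22 for ribosomal RNA without MT-RNR2, 1.02 for complex I without MT-ND4 and 0.986 for nuclear complex III without UQCRC2. With mitochondrial reads as total, they were 1.03 for protein genes, 1.01 for the heavy strand, 1.09 for complex I and 1.06 for complex IV. Each of these classes was lower in shFTO by less than that total was. On the same total, ribosomal RNA (0.877), complex III (0.901), complex V (0.774) and the light strand (0.222) kept their direction. With 1 library left out, the ratio lay between 0.877 and 1.05 for complex I, 0.812 and 1.53 for nuclear complex I, 0.635 and 2.64 for nuclear complex III, 0.983 and 1.24 for nuclear complex V, 0.697 and 1.26 for mitochondrial DNA transcription and copying, and 0.985 and 1.24 for the mitochondrial ribosome. Log2 fold changes lay between -0.50 and 0.13 for MT-CO2, -0.24 and 0.60 for MT-CO3, -0.068 and 0.47 for MT-ND2, -0.59 and 0.012 for MT-ND4, -0.36 and 0.037 for MT-ND5, and -0.11 and 0.80 for MT-RNR1. The cause was not tested. Adding the nuclear copies left the ratio of all mitochondrial reads at 0.856, leaving out MT-CO1 at 0.855, and the other totals at 0.847 and 0.849. Depth limits all of this: 10 of the 37 members had at least 30 reads.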
